A study of Mus musculus with 19 samples.

Results

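The 39 genes described here encode the machinery that copies DNA in S phase of the cell cycle and the enzymes that supply its nucleotides. They were taken as the rows of the deposited gene table whose name is in a fixed list of 39 names, out of 36682 genes, and all 39 were found. Every one of them also passed the filter on low counts that left 22778 genes for testing. By role, the list holds 10 genes of origin licensing, 6 of helicase activation, 6 of the sliding clamp and its loader, 6 of primase and the replicative polymerases, 4 of flap removal, ligation and single-strand binding, 5 of nucleotide synthesis, and the pair Ung and Chaf1a, which act in uracil removal and chromatin assembly. The rule uses names only.

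Messenger RNA was sequenced from the lumbar dorsal root ganglia of male mice in 19 samples. These ganglia house the cell bodies of sensory neurons that serve the knee and leg. Each numbered sample is called a mouse here, although the labels do not state that it is 1 animal. Every mouse, controls included, was homozygous for the macrophage Fas-induced apoptosis (MaFIA) transgene. Its promoter is that of Csf1r, which is active in macrophages and related myeloid cells, and the dimerizing drug AP20187 triggers the death signal of the transgene in cells that express it. One set of mice had osteoarthritis of the knee, induced by destabilizing the medial meniscus in an operation (DMM), and the other set was naive and of matched age. They received AP20187 or vehicle by intraperitoneal injection, once daily on consecutive days, and in the operated mice this was 8 weeks after surgery. The groups were DMM with AP20187 (mice 58, 59, 60, 61 and 62), DMM with vehicle (mice 32, 33, 34, 63 and 64), naive with AP20187 (mice 1, 3, 4 and 5) and naive with vehicle (mice 1, 2, 3, 4 and 5). Ganglia L3 to L5 were pooled for each sample, from the operated side in DMM mice. The labels name neither the age in weeks nor any batch of surgery, extraction or sequencing.

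Replication starts when the origin recognition complex, with Cdc6 and Cdt1, loads the ring of Mcm2 to Mcm7 on DNA, and the ring becomes an active helicase once Cdc45 and the GINS complex join it. Primase and the polymerases then copy both strands, and the PCNA clamp, loaded by replication factor C, holds polymerases delta and epsilon on DNA. Ribonucleotide reductase and thymidylate synthase meanwhile keep up the supply of deoxynucleotides. Most of these genes are transcribed at the entry to S phase under control of E2F factors, so their mRNA is high in dividing cells. Mature sensory neurons do not divide, whereas glia, immune cells and their precursors can.

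The promoters of the members were searched for short motifs of known cell-cycle factors. RefSeq promoter windows, 250 bases before to 50 bases after the annotated start in build GRCm38.p6, were at hand for 32 of the 39 members. Gins1, Gins2, Gins4, Mcm4, Pole, Prim2 and Rfc2 had no entry. Of the 32, 12 (37.5%) held an E2F octamer (TTTCCCGC, TTTCGCGC, TTTGCCGC or TTTGGCGC, on either strand), against 704 of 27025 genes (2.6%) with a window of that length in the same table, noncoding genes included. In a list of other replication genes that holds no member, 11 of 33 windows held it (33.3%), a share close to that of the members. Origin licensing had the octamer in 7 of 9 genes (77.8%), while the 5 nucleotide synthesis genes had none. The CHR motif TTTGAA, typical of genes switched on in G2 and mitosis, was in 4 of 32 members (12.5%) and in 5466 of all 27025 genes (20.2%). Among 14 mitosis genes listed for comparison, 13 had a window, of which 10 held TTTGAA (76.9%) and 1 held the E2F octamer (7.69%).

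Windows of 4 genes are printed 5′ to 3′ in the direction of transcription, with E2F octamers in capitals, as examples, chosen after their values were seen, of members with several octamers, with TTTGAA and with neither. Rrm2, whose change in DMM was the largest of all members, has no octamer in its window and is not printed. Mcm5 (chr8:75109259-75109558, plus strand) has a pair of overlapping octamers that begin 153 and 149 bases before the start, and Mcm6 (chr1:128359656-128359955, minus strand) has 3, at 110, 106 and 47 bases before it. Cdc45 (chr16:18811923-18812222, minus strand) has no octamer and 2 copies of TTTGAA. Rpa1 (chr11:75348334-75348633, minus strand), the member with a negative fold change in both treatment comparisons, has neither motif and 4 copies of the GC box GGGCGG, which 24 of 32 members (75%) and 38.2% of all genes hold at least once. A match describes these letters only, and its absence says nothing about binding of the factor elsewhere.
Mcm5: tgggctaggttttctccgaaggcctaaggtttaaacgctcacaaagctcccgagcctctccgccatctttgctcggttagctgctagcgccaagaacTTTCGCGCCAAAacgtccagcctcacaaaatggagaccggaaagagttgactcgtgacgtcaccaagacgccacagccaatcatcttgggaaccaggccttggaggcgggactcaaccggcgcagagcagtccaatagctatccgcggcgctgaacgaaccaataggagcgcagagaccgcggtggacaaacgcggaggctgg
Mcm6: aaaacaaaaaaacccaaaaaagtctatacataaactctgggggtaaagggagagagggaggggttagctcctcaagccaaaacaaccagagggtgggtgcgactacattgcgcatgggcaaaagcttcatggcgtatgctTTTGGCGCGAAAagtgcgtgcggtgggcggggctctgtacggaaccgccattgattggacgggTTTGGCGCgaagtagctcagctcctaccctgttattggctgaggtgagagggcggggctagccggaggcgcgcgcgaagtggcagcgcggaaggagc
Cdc45: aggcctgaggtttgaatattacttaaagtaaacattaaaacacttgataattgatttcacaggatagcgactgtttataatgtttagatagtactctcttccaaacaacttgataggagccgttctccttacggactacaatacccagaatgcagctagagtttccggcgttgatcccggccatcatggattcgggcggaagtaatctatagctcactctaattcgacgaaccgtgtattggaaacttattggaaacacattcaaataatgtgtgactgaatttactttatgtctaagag
Rpa1: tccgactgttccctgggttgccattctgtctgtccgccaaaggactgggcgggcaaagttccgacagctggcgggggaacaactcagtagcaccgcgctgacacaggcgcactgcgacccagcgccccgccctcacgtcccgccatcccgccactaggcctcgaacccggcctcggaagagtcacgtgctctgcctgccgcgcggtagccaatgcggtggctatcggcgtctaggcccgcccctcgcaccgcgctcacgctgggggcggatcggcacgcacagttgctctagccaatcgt

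Library totals ran from 60984830 to 74691396 counts. Levels are given as CPM, the count scaled to library size after TMM normalization, and comparisons between genes as FPKM, which also scales to gene length. The transcripts of sensory neurons were present in every group, with 9 neuronal markers (Rbfox3, Prph, Avil, Isl1, Scn9a, Scn10a, Nefh, Tubb3 and Snap25) summing to 5845 to 10796 CPM in naive vehicle and 932 to 4806 CPM in DMM with AP20187. Their sum was 3072 to 9781 CPM in DMM vehicle and 1425 to 7903 CPM in naive with AP20187, so the groups overlapped. Of 8 macrophage markers, 1 was called higher with AP20187 (adjusted p under 0.05 by edgeR) and 0 lower in DMM, and 3 higher and 0 lower in naive mice. In DMM 11.3% of all genes were called higher, and in naive mice 8.5%. The groups are named by treatment. Among DMM vehicle mice, 63 and 64 stood nearer to the AP20187 mice than 32 to 34 did in the members' sum below. Whether their numbers mark a separate series or batch is not given, and the counts and the called genes described in full are shown against each set.

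AP20187 was given to remove macrophages, and the question of the first comparison is how the members' mRNA differed with it in DMM mice. Most of the replication genes were more abundant in the ganglia of DMM mice given AP20187. Summed over the 39 members, the level was 1966, 1287, 1389, 1292 and 2225 CPM in mice 58 to 62, and 539, 548, 689.6, 833 and 1136 CPM in vehicle mice 32, 33, 34, 63 and 64. Each AP20187 mouse was above each vehicle mouse. In naive mice the sum was 1517, 1349, 781 and 816 CPM with AP20187 (mice 1, 3, 4 and 5) and 599.99, 565, 709, 814 and 549 CPM with vehicle (mice 1 to 5), and the 2 groups overlapped, since naive vehicle 4 lay between naive AP20187 4 and 5. In bulk ganglia, more cells of a dividing type and more RNA per cell cannot be told apart.

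Of the 39 members, 28 rose in DMM mice by edgeR's quasi-likelihood test at an adjusted p under 0.05 and 0 fell, beside 23.6% of all 22778 genes called in either direction, 11.3% higher and 12.3% lower. The median log2 fold change of the members was 1.28, and that of all genes was -0.10. The fold change was positive for 38 of 39, all but Rpa1. It was at least 2-fold for 23 called members, beside 6.71% of all genes called at that size. The called members at 4-fold or more were Mcm3, Mcm5, Mcm10, Cdc45 and Rrm2, and the share of all genes there was not computed. For 16 members every AP20187 library lay above every vehicle library, which held for 8.71% of all genes. The count of called members fell to between 17 and 18 without AP20187 mouse 58 or 62 or vehicle mouse 32, 33 or 34, and was 32 without vehicle 64, where 14% to 17.1% and 33.8% of all genes were called. Against vehicle mice 32 to 34 alone 36 members were called (36.3% of all genes were), and against 63 and 64 alone 2 were (4.8% of all genes). Those 2 were Cdc45 and Pole, and the 3 not called against 32 to 34 were Gins3, Rfc1 and Rpa1. The median log2 fold change of the members was 1.66 against mice 32 to 34 and 0.72 against 63 and 64.

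**Figure D1:**
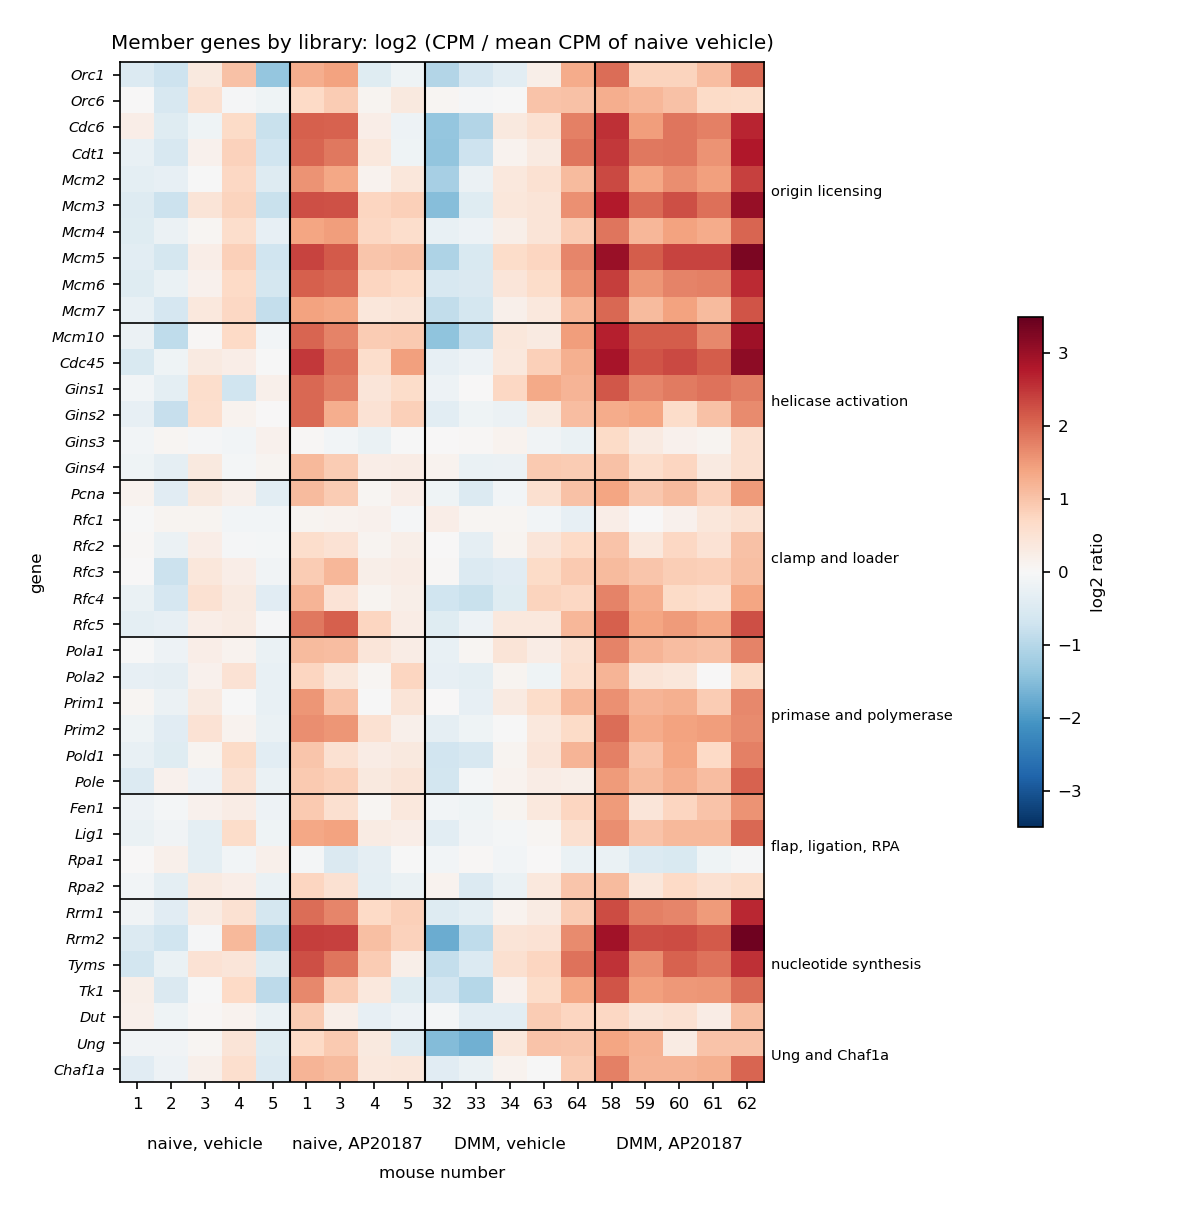
Level of the 39 members (rows, grouped by role) in each of 19 libraries (columns, by mouse number), as the log2 ratio of CPM to the mean of naive vehicle. DMM mice with AP20187 and naive AP20187 mice 1 and 3 are red for most rows, vehicle mice 63 and 64 are redder than 32 and 33, and the rows of Rfc1, Rpa1 and Gins3 are pale throughout.

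Transcripts of granulocyte precursors moved with the members. The 7 markers of that list (Mpo, Elane, Prtn3, Ctsg, Ms4a3, Cebpe and Fcnb), which encode granule proteins and regulators of developing neutrophils, were all called higher in both treatment comparisons. They summed to 1364 to 2888 CPM in DMM with AP20187 against 33.1 to 484 with vehicle, and to 372 to 1841 CPM in naive with AP20187 against 53.2 to 135 with vehicle. No marker of the list was at 0 across a group. Within DMM vehicle, mouse 64 had the highest sum of both the markers and the members. It was also highest for erythroid precursor (11913 CPM), macrophage (532), T and NK cell (29.8), mature neutrophil, Schwann cell, endothelial and fibroblast (6943) sums, and lowest for sensory neurons (3072 CPM). The erythroid sum of the DMM vehicle mice, 918, 1301, 3144, 5332 and 11913 CPM in mice 32, 33, 34, 63 and 64, had the same order as the members' sum. So did their granulocyte precursor, mature neutrophil, T and NK cell and mitosis sums. Mature neutrophil markers were called higher for 5 of 9 in DMM and 6 of 9 in naive mice, beside 11.3% and 8.5% of all genes. They summed to 14489 to 24417 CPM in AP20187-treated DMM mice and 380.5 to 7402 with vehicle.

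Other marker lists moved less or the other way. Over all genes, 23.6% were called in DMM and 11% in naive mice, in either direction. Early B lineage markers were called lower for 7 of 9 tested in DMM and 6 of 9 in naive mice, and Rag2 was at 0 counts in every AP20187 library. Vpreb2 was at 0 in those libraries and in every naive vehicle library too. Their sum was 45.6 to 116 CPM in AP20187-treated DMM mice and 158 to 200.1 with vehicle. Erythroid precursor markers were called lower for 2 of 9 in DMM, summing to 710.2 to 2286 CPM with AP20187 and 918 to 11913 with vehicle. In DMM, 5 of 9 sensory neuron, 3 of 7 satellite glia and 4 of 7 Schwann cell markers were called lower, and 2 of 6 endothelial, 1 of 8 T and NK cell and 0 of 6 fibroblast markers higher. In naive mice the calls were 1 of 7 satellite glia markers lower, 1 of 6 endothelial and 1 of 8 T and NK cell markers higher, and 0 for neurons, Schwann cells, erythroid precursors and fibroblasts. The part of any of these cells in the members' values was not tested.

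**Figure D2:**
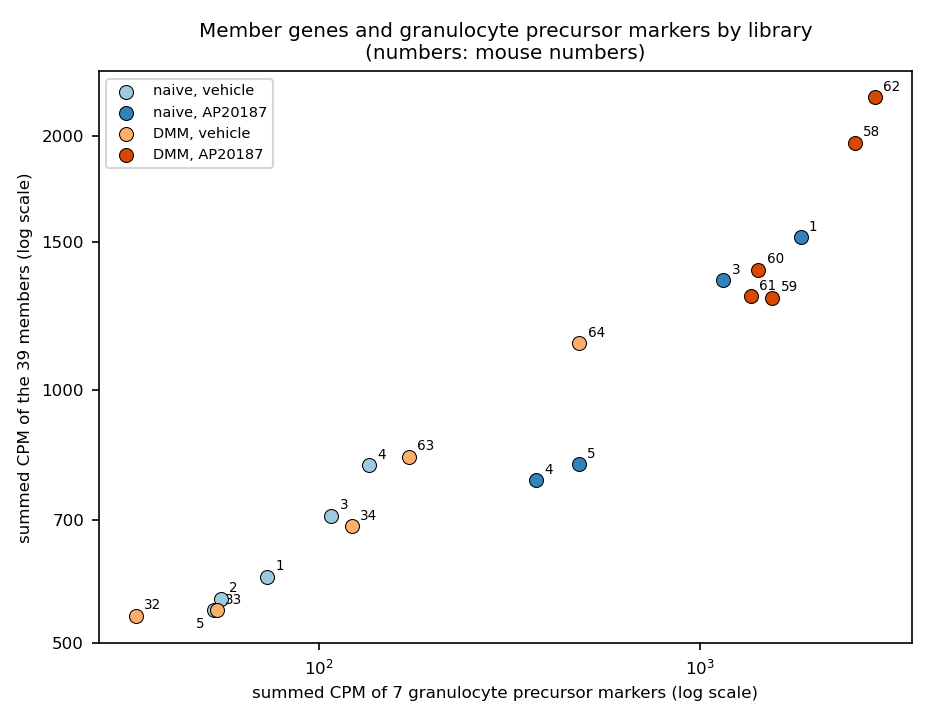
Summed CPM of the 39 members (vertical, log scale) against summed CPM of the 7 granulocyte precursor markers (horizontal, log scale), 1 point per library, labelled with the mouse number. The sums are high together in DMM mice with AP20187 and in naive AP20187 mice 1 and 3, and DMM vehicle 64 stands highest among the vehicle mice on both axes.

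Origin licensing held 8 called genes of 10 in DMM, beside 23.6% of all genes, with log2 fold changes from 0.49 to 2.08 over the list. All 6 subunits of the MCM ring rose, and so did the loading factors Cdc6 (1.67) and Cdt1 (1.70). The calls of Cdc6 and Cdt1 were lost without AP20187 mouse 58 or 62 or vehicle mouse 32, 33, 34 or 63 (adjusted p up to 0.0817 and 0.0766), and those of the ring subunits held in each of 19 fits that left out 1 mouse. The origin recognition subunits Orc1 (log2 fold change 1.28, adjusted p = 0.0762) and Orc6 did not pass the test. Without DMM vehicle 64 the edgeR test called Orc1 (adjusted p = 0.0123). Mcm5 (ENSMUSG00000005410, chromosome 8, 75836197 to 75855067, plus strand), a subunit of the helicase ring, had the largest change of the list. It was at 104, 55.3, 65.6, 66.1 and 126 CPM in DMM mice with AP20187, and at 6.03, 8.85, 19.9, 21.6 and 41.96 CPM with vehicle, in the mouse order given above. Gene positions here and below are in build GRCm39. Naive mice had 66.03, 57.03, 24.9 and 25.95 CPM with AP20187 and 9.93, 8.33, 15.1, 22.7 and 7.83 CPM with vehicle. In both settings the AP20187 range lay wholly above the vehicle range, with means of 83.4 ± 30.2 against 19.7 ± 14.2 CPM in DMM (SD, n = 5 each). The edgeR test gave a log2 fold change 2.08, SE 0.47, adjusted p = 0.00521 in DMM, a 4.24-fold change, and a log2 fold change 1.77, SE 0.48, adjusted p = 0.0252 in naive mice. The DMM value of Mcm5 was 2.85 against vehicle 32 to 34 and 1.39 against 63 and 64 (adjusted p = 0.13), and its naive call was lost without AP20187 mouse 1 or 3 or vehicle mouse 1, 2 or 5 (adjusted p up to 0.0939).

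Mcm2 (ENSMUSG00000002870, chromosome 6, 88860456 to 88875762, minus strand), another ring subunit and a histone carrier at the fork, was at 65.1, 33.8, 40.5, 35.6 and 69.7 CPM in AP20187-treated DMM mice and 5.86, 11.4, 17.1, 18.9 and 28.6 CPM with vehicle. With a log2 fold change 1.58, SE 0.38, adjusted p = 0.00812, it rose in DMM, and the lowest AP20187 mouse was above the highest vehicle mouse. The value was 2.09 against vehicle 32 to 34 and 1.05 against 63 and 64 (adjusted p = 0.19). In naive mice it was at 39.05, 33.9, 14.2 and 17.3 CPM with AP20187 and 10.4, 10.8, 13.1, 21.9 and 9.53 CPM with vehicle. AP20187 mice 4 and 5 fell within the vehicle range there, and the test was not passed (log2 fold change 0.99, SE 0.40, adjusted p = 0.111). Orc6 (ENSMUSG00000031697, chromosome 8, 86026261 to 86034700, plus strand), a small subunit of the origin recognition complex, changed least in the list. Its levels were 27.6, 25.9, 23.5, 18.1 and 17.8 CPM in AP20187-treated DMM mice and 12.1, 11.1, 11.3, 22.9 and 23.2 CPM with vehicle, where mice 63 and 64 lay inside the AP20187 range and 32 to 34 below it. In naive mice Orc6 was at 18.6, 21.2, 12.3 and 14.5 CPM with AP20187 and 11.6, 7.82, 16.5, 11.1 and 10.4 CPM with vehicle, also overlapping. Neither difference passed, with a log2 fold change 0.49, SE 0.25, adjusted p = 0.171 in DMM and a log2 fold change 0.54, SE 0.27, adjusted p = 0.191 in naive mice. Orc6 overlaps Vps35 on the opposite strand, whose mean level was 320.4 CPM.

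The make-up of the MCM ring transcripts was compared without a test. As a share of the FPKM summed over Mcm2 to Mcm7, Mcm5 made up 20.6% ± 0.97 (SD, n = 5) in DMM with AP20187 and 14.1% ± 2.96 with vehicle, and Mcm3 16.4% ± 0.85 and 11.5% ± 2.75. Mcm4 had a share of 19.3% ± 1.20 with AP20187 and 26.4% ± 6.49 with vehicle. The share of Mcm7 was 18.6% ± 0.94 with AP20187 and 21.8% ± 0.41 with vehicle, and those of Mcm2 and Mcm6 differed by less than their SD in the vehicle group. In naive mice Mcm5 made up 17.1% ± 1.26 (SD, n = 4) with AP20187 and 12.6% ± 1.09 (n = 5) with vehicle, Mcm3 14.9% ± 1.94 and 11.6% ± 1.81, Mcm7 19.6% ± 1.36 and 23.99% ± 2.75, and Mcm4 22.8% ± 3.57 and 26.4% ± 3.83. The naive share of Mcm2 was 5.95% ± 0.56 with AP20187 and 7.74% ± 0.74 with vehicle, and that of Mcm6 19.7% ± 1.57 and 17.6% ± 1.31.

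Helicase activation held 4 called genes of 6 in each treatment comparison, beside 23.6% of all genes in DMM and 11% in naive mice. Mcm10, which helps the helicase to fire, and Cdc45, Gins1 and Gins2 rose, with log2 fold changes of 2.06, 2.07, 1.15 and 0.99 in DMM and 1.49, 1.77, 1.38 and 1.27 in naive mice, all past the threshold. Their GINS partners Gins3 and Gins4 were not called in either, and the difference between the partners was not tested. The DMM call of Gins1 was lost without AP20187 mouse 58 or vehicle mouse 32, 33 or 34 (adjusted p up to 0.0693). Gins2 lost it without AP20187 mouse 58, 59 or 62 or vehicle mouse 32, 33, 34 or 63 (up to 0.0938). In naive mice Gins1 and Gins2 were called in 15 of 19 such fits, not without AP20187 mouse 1 or 3 or vehicle mouse 1 or 2, and Mcm10 in 9 of 19. Cdc45 (ENSMUSG00000000028, chromosome 16, 18599197 to 18630722, minus strand), which binds the ring to form the active helicase, was at 37.1, 23.4, 25.001, 21.9 and 43.9 CPM in AP20187-treated DMM mice and 4.12, 4.48, 6.54, 9.04 and 11.9 CPM with vehicle. It was at 28.2, 19.2, 7.71 and 13.5 CPM in naive with AP20187 and 3.49, 4.54, 6.31, 5.89 and 4.98 CPM with vehicle. The AP20187 range was above the vehicle range in DMM and in naive mice alike. Its log2 fold change 2.07, SE 0.35, adjusted p = 0.000801 in DMM and its log2 fold change 1.77, SE 0.36, adjusted p = 0.0048 in naive mice were past the threshold in each of 19 fits that left out 1 mouse. With a replicate block in naive mice the call was lost (adjusted p = 0.0544). In DMM it was 2.58 against vehicle 32 to 34 and 1.54 against 63 and 64 (adjusted p = 0.0481). Cdc45 overlaps Ufd1 on the opposite strand (62.2 CPM).

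Gins4 (ENSMUSG00000031546, chromosome 8, 23716632 to 23727675, minus strand) was at 26.4, 20.2, 22.1, 16.1 and 19.3 CPM in AP20187-treated DMM mice and 14.2, 11.2, 11.3, 24.6 and 24.2 CPM with vehicle. In naive mice it was at 28.5, 24.1, 15.2 and 15.7 CPM with AP20187 and 11.8, 10.5, 16.7, 12.4 and 13.9 CPM with vehicle. Vehicle mice 63 and 64 lay in the upper part of the AP20187 range, so the DMM groups overlapped. The test was not passed (log2 fold change 0.28, SE 0.25, adjusted p = 0.442 in DMM, log2 fold change 0.68, SE 0.26, adjusted p = 0.0991 in naive mice), and against mice 63 and 64 alone the DMM value turned negative, -0.20. Gins3, at 7.60 to 14.3 CPM over all 19 libraries, had a log2 fold change 0.40, SE 0.14, adjusted p = 0.0502 in DMM and -0.07 in naive mice. Without DMM AP20187 60 or 61 the edgeR test called its DMM difference (adjusted p = 0.0478 and 0.0285).

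Clamp and loader genes were called in 4 of 6 cases in DMM, namely Pcna, Rfc2, Rfc4 and Rfc5, and in 1 of 6 in naive mice, Rfc5, beside 23.6% and 11% of all genes. Rfc2 kept its DMM call in 9 of 19 fits that left out 1 mouse, with adjusted p up to 0.123. Rfc4 lost it without AP20187 mouse 58, 59 or 62 or vehicle mouse 32, 33 or 34 (up to 0.0939). Pcna (ENSMUSG00000027342, chromosome 2, 132091082 to 132095234, minus strand), the sliding clamp that tethers polymerases to DNA, was at 170.2, 124, 139, 114 and 181 CPM in AP20187-treated DMM mice and 58.4, 46.5, 60.8, 96.1 and 133 CPM with vehicle. Mouse 64 lay inside the AP20187 range and the other vehicle mice below it. The naive groups, at 139, 119, 68.3 and 76.3 CPM with AP20187 and 70.01, 49.4, 81.5, 73.5 and 49.97 CPM with vehicle, overlapped too. It rose in DMM (log2 fold change 0.88, SE 0.27, adjusted p = 0.0268) and was not called in naive mice (log2 fold change 0.64, SE 0.29, adjusted p = 0.15). The DMM call was lost without AP20187 mouse 58 or 62 or vehicle mouse 32, 33 or 34, with adjusted p up to 0.0716, and the value was 1.40 against vehicle 32 to 34 and 0.36 against 63 and 64 (adjusted p = 0.556). The pseudogene Pcna-ps2, which may share reads with Pcna, was at 1.06 CPM.

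Rfc5 (ENSMUSG00000029363, chromosome 5, 117516168 to 117527112, minus strand), a small subunit of the clamp loader, had the largest change of this list. It was at 26.6, 16.4, 17.5, 16.01 and 30.2 CPM in AP20187-treated DMM mice and 4.67, 5.52, 8.11, 8.07 and 14.1 CPM with vehicle, without overlap. In naive mice it was at 22.4, 26.9, 10.5 and 7.58 CPM and 5.00, 5.19, 7.41, 7.68 and 6.12 CPM, where AP20187 mouse 5 lay within the vehicle range. Rfc5 rose in both (log2 fold change 1.40, SE 0.34, adjusted p = 0.00867 in DMM and log2 fold change 1.42, SE 0.36, adjusted p = 0.0175 in naive mice), the naive call being lost without AP20187 mouse 1 or 3. Its DMM value was 1.81 against vehicle 32 to 34 and 0.94 against 63 and 64 (adjusted p = 0.255). The large subunit Rfc1 (ENSMUSG00000029191, chromosome 5, 65419193 to 65492964, minus strand) was nearly level, at 72.4, 62.05, 68.3, 80.8 and 90.4 CPM in AP20187-treated DMM mice and 72.2, 65.3, 64.7, 57.4 and 51.2 CPM with vehicle. Naive mice had 65.9, 67.95, 68.9 and 60.1 CPM with AP20187 and 61.4, 66.02, 66.4, 58.1 and 57.5 CPM with vehicle. All 4 groups overlapped, with a log2 fold change 0.27, SE 0.12, adjusted p = 0.119 in DMM and a log2 fold change 0.09, SE 0.13, adjusted p = 0.677 in naive mice. The naive value changed sign on the log2(FPKM + 1) scale, to -0.09, and DESeq2 called the DMM difference. Opposite-strand neighbours were Wsb2 at 125.3 CPM for Rfc5 and Eif4a2 at 1037 CPM for Rfc4, whose own mean was 8.35 CPM. The libraries were stranded, but whether the counting used strand is not given in the sources used here. Reads of such a pair may thus not have been kept apart, and the values of Rfc4 are uncertain. The same doubt holds for Orc6, Rfc5, Cdc45, Mcm7, Chaf1a and Gins2, which also have an opposite-strand neighbour above their own mean level.

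**Figure D3:**
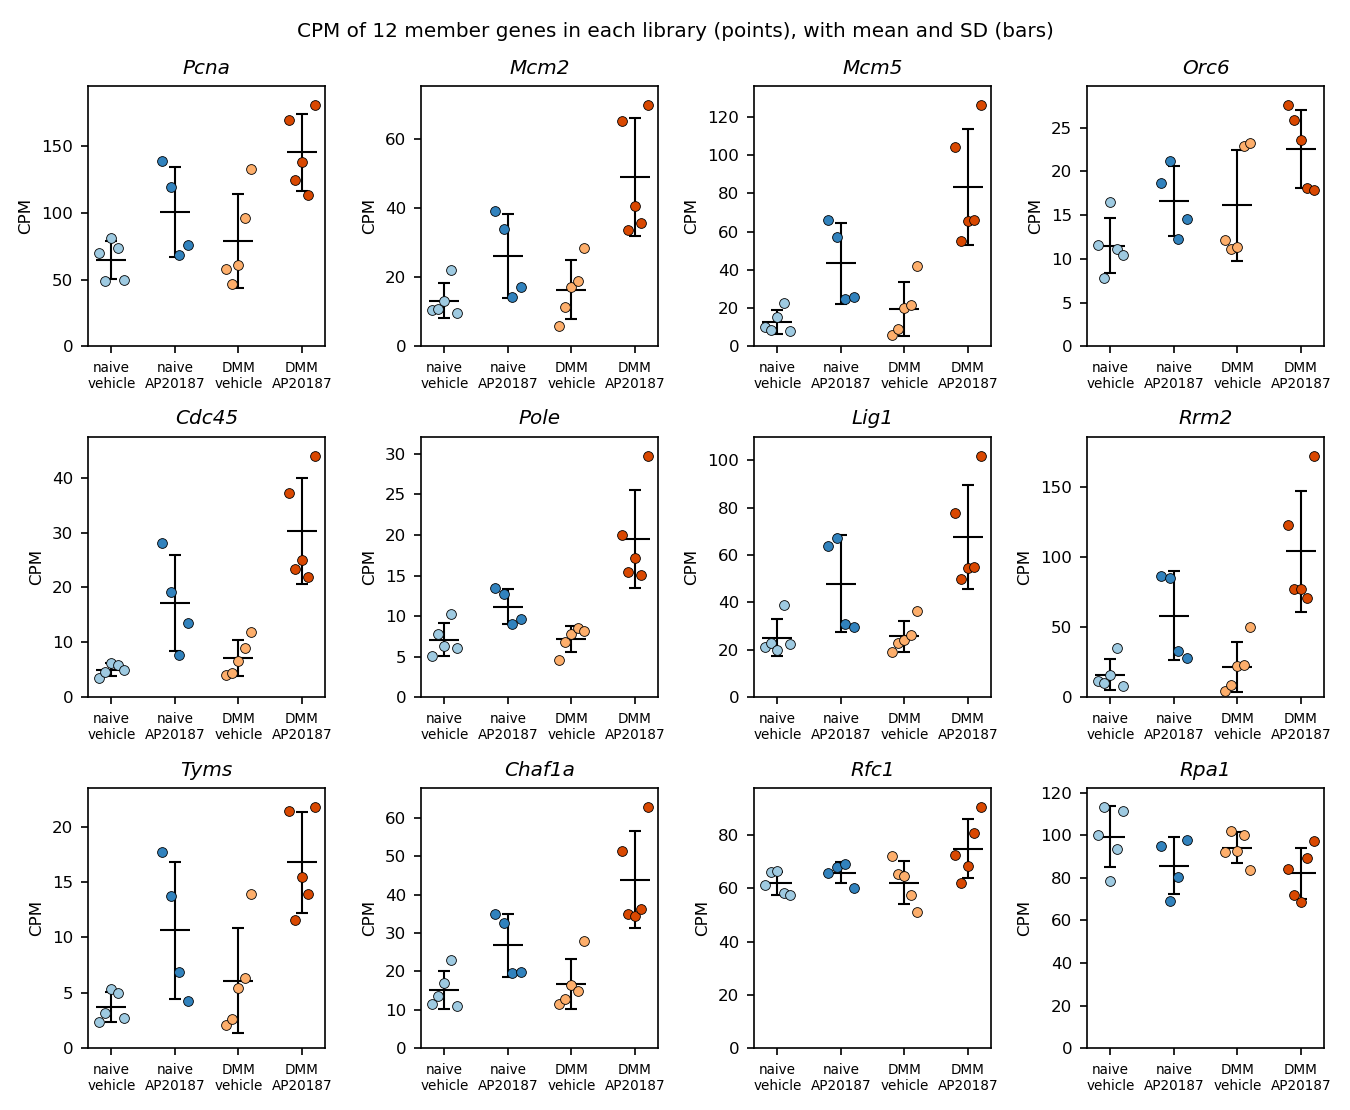
CPM of 12 members in each library (points) by group, with the group mean (horizontal bar) and SD (error bar), on axes that start at 0. Mcm2, Mcm5, Cdc45, Pole, Lig1, Rrm2 and Chaf1a have DMM AP20187 points wholly above the DMM vehicle points, while Pcna, Tyms, Orc6, Rfc1 and Rpa1 overlap.

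Primase and polymerase genes rose in DMM for 5 of 6, beside 11.3% of all genes called higher, Pola2 being the exception. Pola1 and Prim2, subunits of the complex that lays down the RNA-DNA primer, were called in both treatment comparisons, and Prim1, Pold1 and Pole passed in DMM but not in naive mice. Prim1 lost its DMM call without AP20187 mouse 58 or 62 or vehicle mouse 32, 33 or 34 (adjusted p up to 0.0828), and Pold1 without AP20187 mouse 58 or 62 or vehicle mouse 33 (up to 0.0588). Pole (ENSMUSG00000007080, chromosome 5, 110434172 to 110485340, plus strand), the catalytic subunit of the leading-strand polymerase, was at 20.02, 15.4, 17.1, 15.04 and 29.7 CPM in AP20187-treated DMM mice and 4.60, 6.80, 7.75, 8.57 and 8.23 CPM with vehicle. Every AP20187 mouse was above every vehicle mouse. In naive mice it was at 13.4, 12.7, 8.97 and 9.66 CPM with AP20187 and 5.11, 7.84, 6.27, 10.2 and 6.08 CPM with vehicle, where vehicle mouse 4 reached into the AP20187 range. Pole had the smallest adjusted p of any member in DMM (log2 fold change 1.44, SE 0.24, adjusted p = 0.000747) and was not called in naive mice (log2 fold change 0.65, SE 0.25, adjusted p = 0.0923). The DMM value of Pole was 1.61 against vehicle 32 to 34 and 1.23 against 63 and 64 (adjusted p = 0.0346). Without naive vehicle 4 the naive adjusted p was 0.0373. Pola2 (ENSMUSG00000024833, chromosome 19, 5990570 to 6014230, minus strand), the regulatory subunit of the primer complex, was at 25.1, 15.05, 14.7, 11.2 and 17.8 CPM in AP20187-treated DMM mice and 9.10, 8.71, 11.8, 10.1 and 16.7 CPM with vehicle. The naive groups had 18.7, 14.5, 11.7 and 18.8 CPM and 9.08, 8.99, 12.3, 15.8 and 9.22 CPM. Groups overlapped in both settings and neither test was passed (log2 fold change 0.57, SE 0.24, adjusted p = 0.0907 in DMM, log2 fold change 0.52, SE 0.25, adjusted p = 0.182 in naive mice). Without DMM AP20187 61 or DMM vehicle 64 the DMM difference of Pola2 was called (adjusted p = 0.0434 and 0.0209).

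Of the genes that finish the new strand, Fen1, which trims flaps between Okazaki fragments, and Lig1, which seals them, rose in DMM. Rpa1 and Rpa2, subunits of the single-strand binding protein, were not called. Lig1 (ENSMUSG00000056394, chromosome 7, 13011239 to 13045350, plus strand) was at 77.8, 49.7, 54.5, 54.7 and 102 CPM in AP20187-treated DMM mice and 19.3, 23.01, 23.95, 26.2 and 36.6 CPM with vehicle, without overlap. It was at 63.95, 66.99, 30.8 and 29.5 CPM in naive with AP20187 and 21.2, 22.8, 19.8, 38.8 and 22.5 CPM with vehicle. Vehicle mouse 4 stood above AP20187 mice 4 and 5 there, while the other 4 vehicle mice were below all of them. Lig1 rose in DMM (log2 fold change 1.39, SE 0.28, adjusted p = 0.0027) and in naive mice (log2 fold change 0.93, SE 0.29, adjusted p = 0.0447). The DMM value was 1.61 against vehicle 32 to 34 and 1.11 against 63 and 64 (adjusted p = 0.115). The naive call held in 10 of 19 fits that left out 1 mouse, with adjusted p up to 0.176. Rpa1 (ENSMUSG00000000751, chromosome 11, 75188992 to 75239150, minus strand), the large DNA-binding subunit, was at 84.1, 71.8, 68.4, 89.1 and 97.4 CPM in AP20187-treated DMM mice and 92.2, 102, 92.7, 100.02 and 83.8 CPM with vehicle. Naive mice had 95.1, 69.3, 80.3 and 97.8 CPM with AP20187 and 100.2, 113, 78.5, 93.6 and 111 CPM with vehicle. Treated and vehicle mice overlapped in both settings, and neither difference passed (log2 fold change -0.20, SE 0.14, adjusted p = 0.328 in DMM, log2 fold change -0.21, SE 0.15, adjusted p = 0.341 in naive mice).

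Nucleotide synthesis genes rose in DMM for 4 of 5, beside 11.3% of all genes called higher. Rrm1 and Rrm2, the subunits of ribonucleotide reductase, and Tyms, thymidylate synthase, were called in both treatment comparisons, and Tk1, the cytosolic thymidine kinase, passed in DMM but not in naive mice. The DMM call of Tk1 was lost without AP20187 mouse 58 or 62 or vehicle mouse 32, 33 or 34 (adjusted p up to 0.0648). Rrm2 (ENSMUSG00000020649, chromosome 12, 24758240 to 24764145, plus strand), the subunit that limits reductase activity in S phase, had the largest change of all 39 members. It was at 123, 76.8, 77.5, 70.8 and 172 CPM in AP20187-treated DMM mice and 4.81, 8.60, 22.02, 22.999 and 50.2 CPM with vehicle, without overlap. The vehicle mice themselves spanned a wide range, from 4.81 CPM in mouse 32 to 50.2 CPM in mouse 64. Naive mice had 86.1, 84.7, 33.2 and 28.1 CPM with AP20187 and 11.6, 9.94, 15.6, 35.2 and 7.91 CPM with vehicle, with vehicle mouse 4 above AP20187 mice 4 and 5. Rrm2 rose 4.79-fold in DMM (log2 fold change 2.26, SE 0.56, adjusted p = 0.00892) and 3.61-fold in naive mice (log2 fold change 1.85, SE 0.57, adjusted p = 0.0438). The log2 fold change of Rrm2 in DMM was 3.14 against vehicle 32 to 34 and 1.496 against 63 and 64 (adjusted p = 0.182). The naive call held in 9 of 19 fits that left out 1 mouse. Rrm2b, the p53-inducible subunit that serves non-dividing cells, fell in DMM (log2 fold change -0.56, SE 0.18, adjusted p = 0.0311), with 56.4 ± 10.02 CPM with AP20187 and 82.96 ± 20.8 CPM with vehicle (SD, n = 5 each). The CPM ratio of Rrm2 to Rrm2b, chosen after the values were seen, had a median of 1.43 in DMM with AP20187 and 0.261 with vehicle.

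Tyms (ENSMUSG00000025747, chromosome 5, 30263200 to 30278615, minus strand), which makes thymidylate, was at 21.4, 11.6, 15.4, 13.9 and 21.7 CPM in AP20187-treated DMM mice and 2.08, 2.69, 5.45, 6.33 and 13.95 CPM with vehicle, where mouse 64 reached into the AP20187 range. In naive mice it was at 17.7, 13.7, 6.89 and 4.29 CPM with AP20187 and 2.41, 3.16, 5.32, 5.00 and 2.75 CPM with vehicle. AP20187 mouse 5 lay within the vehicle range. Tyms rose in DMM (log2 fold change 1.46, SE 0.46, adjusted p = 0.0292) and, just inside the threshold, in naive mice (log2 fold change 1.51, SE 0.48, adjusted p = 0.0488). The DMM call was lost without AP20187 mouse 58 or 62 or vehicle mouse 32, 33 or 34, with adjusted p up to 0.0741. The DMM value of Tyms was 2.30 against vehicle 32 to 34 and 0.72 against 63 and 64 (adjusted p = 0.4665), and the naive call held in 7 of 19 such fits. Dut (ENSMUSG00000027203, chromosome 2, 125089110 to 125100528, plus strand), which keeps uracil out of DNA by degrading dUTP, was at 25.9, 21.8, 23.02, 18.8 and 32.5 CPM in AP20187-treated DMM mice and 15.1, 12.3, 12.3, 29.01 and 26.7 CPM with vehicle. Its naive levels were 29.2, 18.2, 13.01 and 14.01 CPM with AP20187 and 17.8, 14.2, 16.4, 17.1 and 13.4 CPM with vehicle. Both settings overlapped and neither test was passed (log2 fold change 0.35, SE 0.26, adjusted p = 0.356 in DMM, log2 fold change 0.24, SE 0.28, adjusted p = 0.589 in naive mice). Against DMM vehicle 63 and 64 alone the DMM value was -0.17.

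Chaf1a (ENSMUSG00000002835, chromosome 17, 56347439 to 56379289, plus strand), a subunit of the chromatin assembly factor that places histones behind the fork, was at 51.3, 34.8, 34.5, 36.2 and 62.7 CPM in AP20187-treated DMM mice and 11.5, 12.9, 16.5, 14.9 and 27.97 CPM with vehicle. The DMM groups did not overlap. In naive mice it was at 34.9, 32.7, 19.6 and 19.98 CPM with AP20187 and 11.6, 13.6, 17.1, 22.9 and 10.9 CPM with vehicle, where vehicle mouse 4 exceeded AP20187 mice 4 and 5. It rose in DMM (log2 fold change 1.39, SE 0.28, adjusted p = 0.00259) and was not called in naive mice (log2 fold change 0.82, SE 0.29, adjusted p = 0.074). Split by vehicle mice, the DMM value of Chaf1a was 1.69 against vehicle 32 to 34 and 1.03 against 63 and 64 (adjusted p = 0.118). Without naive vehicle 4, without naive AP20187 5 or without DMM vehicle 64 the naive difference of Chaf1a was called (adjusted p = 0.0318, 0.0406 and 0.038). Ung (ENSMUSG00000029591, chromosome 5, 114268447 to 114277384, plus strand), the glycosylase that removes uracil from DNA, was the least abundant member, at 3.02, 2.66, 1.40, 2.32 and 2.29 CPM in AP20187-treated DMM mice and 0.401, 0.358, 1.53, 2.31 and 2.25 CPM with vehicle. Naive mice had 1.87, 2.16, 1.46 and 0.842 CPM and 1.07, 1.06, 1.21, 1.57 and 0.869 CPM. Vehicle mice 32 and 33 were below all other DMM mice, the groups overlapped, and neither test was passed (log2 fold change 0.77, SE 0.45, adjusted p = 0.227 in DMM, log2 fold change 0.46, SE 0.47, adjusted p = 0.538 in naive mice).

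The next comparison asked whether the members also changed with AP20187 in mice without surgery. They did for 15 of 39, all upward, beside 11% of all genes called in either direction and 8.5% called higher. Each of the 15 was also called in DMM: Mcm3, Mcm4, Mcm5, Mcm6, Mcm10, Cdc45, Gins1, Gins2, Rfc5, Pola1, Prim2, Lig1, Rrm1, Rrm2 and Tyms. They make up 53.6% of the DMM calls and 100% of the naive calls of the members. Over all genes, the 1258 called higher in both make up 49.1% of those called higher in DMM and 65% of those in naive mice. The smallest adjusted p belonged to Cdc45 (0.0048), Rrm1 (0.0122) and Mcm4 (0.0159). Rrm1 was at 151, 127, 63.2 and 68.6 CPM with AP20187 and 35.4, 29.6, 47.5, 56.1 and 25.5 CPM with vehicle, without overlap, and Mcm4 at 59.5, 62.6, 37.7 and 34.4 CPM and 17.01, 19.8, 23.6, 34.5 and 18.5 CPM, where vehicle mouse 4 was just above AP20187 mouse 5. The median log2 fold change was 0.82 for the members and -0.07 for all genes. For 5 members, Mcm5, Mcm10, Cdc45, Pola1 and Rrm1, every AP20187 mouse was above every vehicle mouse, against 9.39% of all genes.

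The naive count rested on few mice. AP20187 mice 1 and 3 had higher member sums than mice 4 and 5, and without mouse 1 the test called 1 member (Cdc45), 2.56% of members beside 5.01% of all genes. Without mouse 3 it called 2 (Cdc45 and Rrm1), 5.13% of members beside 4.1% of all genes. Without vehicle mouse 1, 2 or 5 it called 4, 4 and 7, beside 5.88%, 5.59% and 6.77% of all genes. In the fit of all mice the fold change was positive for 37 of 39 members, Rpa1 and Gins3 being negative, and that of Dut turned negative without AP20187 mouse 1 (-0.07). The 13 members called in DMM alone were Cdc6, Cdt1, Mcm2, Mcm7, Pcna, Rfc2, Rfc4, Prim1, Pold1, Pole, Fen1, Tk1 and Chaf1a. Their naive log2 fold changes ran from 0.37 for Rfc2 to 1.40 for Cdc6, with adjusted p from 0.0686 for Prim1 to 0.317 for Rfc4. The 11 called in neither were Orc1, Orc6, Gins3, Gins4, Rfc1, Rfc3, Pola2, Rpa1, Rpa2, Dut and Ung. Among those not yet given, Rfc3 had log2 fold changes of 0.70 in DMM and 0.69 in naive mice, and Rpa2 of 0.45 and 0.25. Without DMM vehicle 64 the edgeR test called both in DMM (adjusted p = 0.0152 for Rfc3 and 0.0322 for Rpa2).

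**Figure D4:**
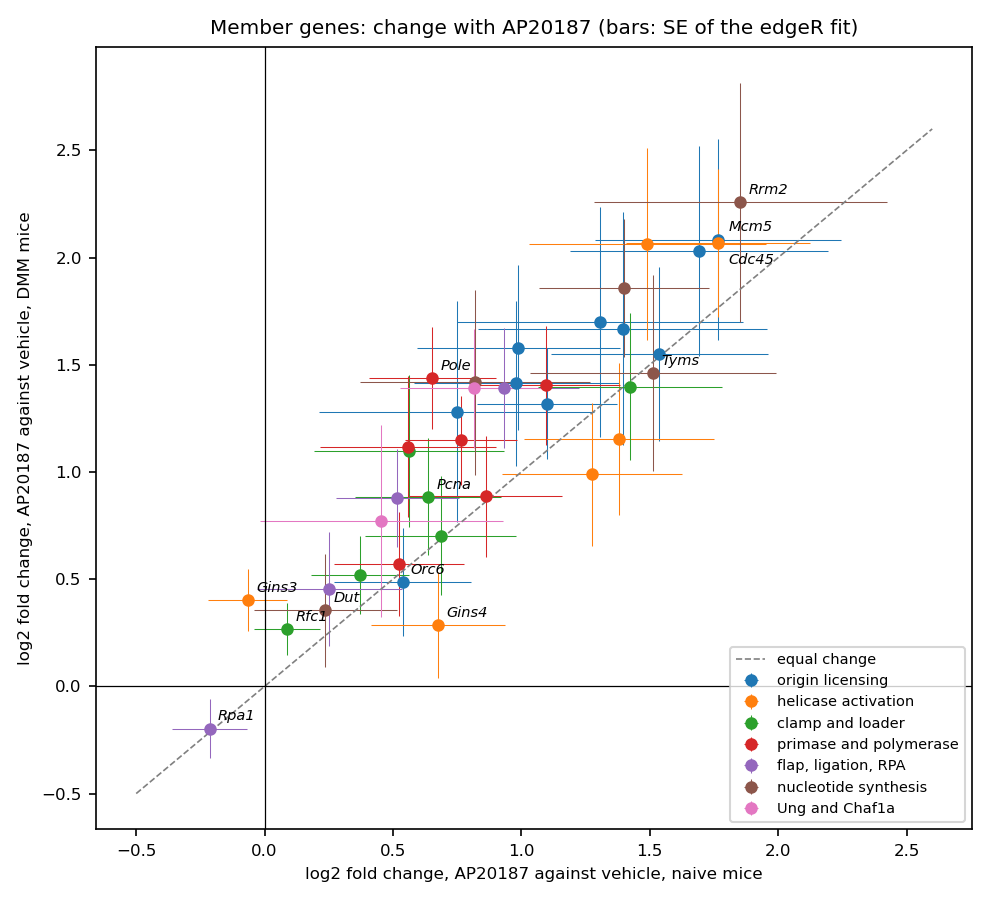
Log2 fold change with AP20187 of the 39 members in DMM mice (vertical) and naive mice (horizontal), with bars for the SE of the edgeR fit and a dashed line of equal change. Rrm2, Mcm5 and Cdc45 lie at the upper right and Rpa1 at the lower left, and 33 of 39 points have a larger value in DMM.

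The difference between the 2 treatment effects was tested as an interaction, the change in DMM minus that in naive mice. No member was called, beside 0.11% of all genes, although the value was positive for 33 of 39 and the median was 0.31. At an unadjusted p under 0.05 there were 2 members, Pole (0.78, SE 0.34, adjusted p = 0.606) and Gins3 (0.47, SE 0.21, adjusted p = 0.621), and DESeq2 called 0. Next came Chaf1a, with 0.57 and an adjusted p of 0.836. Calls made in DMM alone are therefore not shown to differ between the settings.

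Without drug, surgery was not accompanied by a detectable change in any member. Comparing DMM with naive mice on vehicle, edgeR called 0 members and 0% of all genes. No member had an unadjusted p under 0.05, and DESeq2 also called 0. The smallest p were those of Gins1 (log2 fold change 0.74), Orc6 (0.49) and Prim1 (0.46) in the edgeR fit, each with an adjusted p of 1. Gins1 was at 1.30, 1.48, 2.41, 3.61 and 3.33 CPM in DMM vehicle and 1.35, 1.15, 2.23, 0.887 and 1.64 CPM in naive vehicle. The median over the members was 0.27, and it was -0.17 with DMM vehicle mice 32 to 34 alone and 0.86 with 63 and 64 alone. With 63 and 64 alone 2.27% of all genes were called and no member was, the lowest adjusted p of a member being 0.0505. The SE of a member in this contrast ran from 0.12 to 0.53.

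With AP20187 on both sides, DMM mice had higher values than naive mice for 36 of 39 members, with a median log2 difference of 0.56. EdgeR called 0 of them, beside 0.676% of all genes, with 8 at an unadjusted p under 0.05. The smallest p belonged to Pole (0.80, adjusted p = 0.134), Gins3 (0.45, adjusted p = 0.168) and Pola1 (0.62, adjusted p = 0.174) in the edgeR fit. Pole and Gins3 were also the 2 members whose DMM mice were all above the naive mice, against 3.46% of all genes. DESeq2 called those 2, 5.13% of members beside 4.87% of all genes, and limma on log2(FPKM + 1) called 3, adding Pola1, 7.69% of members beside 5.67% of all genes, so both shares were near the background. Pola1 was at 44.6, 30.9, 28.5, 27.2 and 45.03 CPM in AP20187-treated DMM mice and 29.04, 28.3, 17.9 and 16.2 CPM in naive with AP20187. These comparisons share libraries with the treatment comparisons above and are not independent of them.

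Per length, the members differed widely in naive vehicle ganglia. Pcna was highest at 26.5 ± 6.38 FPKM (SD, n = 5), followed by Rpa1 at 17.4 ± 2.18, Rfc1 at 10.03 ± 0.725, Gins4 at 9.48 ± 1.88, Fen1 at 6.47 ± 0.968 and Dut at 6.40 ± 0.849 FPKM. Rfc1 and Gins4, and Fen1 and Dut, differed by less than their SD. At the other end were Tyms at 0.595 ± 0.223, Orc1 at 0.511 ± 0.342, Mcm10 at 0.4929 ± 0.202 and Ung at 0.201 ± 0.0471 FPKM. Of these 6 highest, Rpa1, Rfc1, Gins4 and Dut were called in neither treatment comparison and Pcna and Fen1 in DMM alone. Of the 4 lowest, Orc1 and Ung were called in neither and Tyms and Mcm10 in both. In DMM with AP20187, Pcna was at 58.8 ± 10.9 FPKM, Rrm2 at 35.99 ± 12.98 FPKM against 8.01 ± 6.89 with vehicle, and Mcm5 at 20.1 ± 6.52 FPKM against 5.01 ± 3.82.

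Other replication genes, a list of 39 that holds no member, rose in DMM for 24 and fell for 0, and rose in naive mice for 9. Over all genes, 11.3% were called higher in DMM and 8.5% in naive mice. The largest changes in DMM were those of Ticrr (2.68), which helps Cdc45 to load, and Pole2 (2.44), a subunit of polymerase epsilon. The smallest among those called were Donson (0.60) and Rnaseh2b (0.78), which encodes a subunit of the enzyme that removes ribonucleotides from DNA. In naive mice Pole2 (2.20) and Asf1b (2.08), a histone chaperone, led the called genes, and Topbp1 (0.80) and Dnmt1 (0.82), the maintenance DNA methyltransferase, were the least changed of them. These values are log2 fold changes, as are those in the next paragraphs.

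Other nucleotide genes, 20 in number, were called in DMM for 30%, beside 23.6% of all genes, and in naive mice for 5%, beside 11%. In DMM 5 rose, led by Shmt1 (1.47), which supplies one-carbon units, and Dctd (1.35), dCMP deaminase, and 1 fell, Rrm2b. Cad (0.55), which starts pyrimidine synthesis, rose by less. In naive mice only Impdh2 (0.75), of guanine nucleotide synthesis, was called. The list's median was 0.18 in DMM, compared with 1.46 for the 5 nucleotide synthesis members.

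Of 24 genes that govern entry to S phase, 12 rose and 1 fell in DMM, and 8 rose and 0 fell in naive mice. Of all genes, 11.3% were called higher and 12.3% lower in DMM, and 8.5% higher in naive mice. Cdk2 (2.40), a kinase that starts S phase, and E2f7 (2.37), a repressor of the E2F family, rose most in DMM, while E2f4 rose by 0.71 and E2f6, another repressor, fell (-0.58). In naive mice Ccnd3 (1.95) and Ccna2 (1.92), both cyclins, led, and Cdc25a (1.32) and Cdk6 (1.35) were the least changed of those called. All 14 mitosis genes rose in DMM, from Bub1b (1.81) and Nusap1 (2.09) to Plk1 (2.87) and Ccnb1 (3.04), with a list median of 2.40. In naive mice 12 of them rose, from Ttk (1.71) and Aurka (1.76) to Ccnb2 (2.48) and Ccnb1 (2.85), with a median of 2.12.

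Of 20 DNA repair genes that act outside S phase, 2 rose and 1 fell in DMM, and 0 rose and 1 fell in naive mice. That was 15% of the list in DMM and 5% in naive mice, beside 23.6% and 11% of all genes. The called genes were Xpc (0.73) and Xrcc1 (0.52), higher in DMM, Parp1 (-0.65), lower in DMM, and Ercc2 (-0.56), lower in naive mice. The list's median was -0.06 in DMM, near that of all genes.

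**Figure D5:**
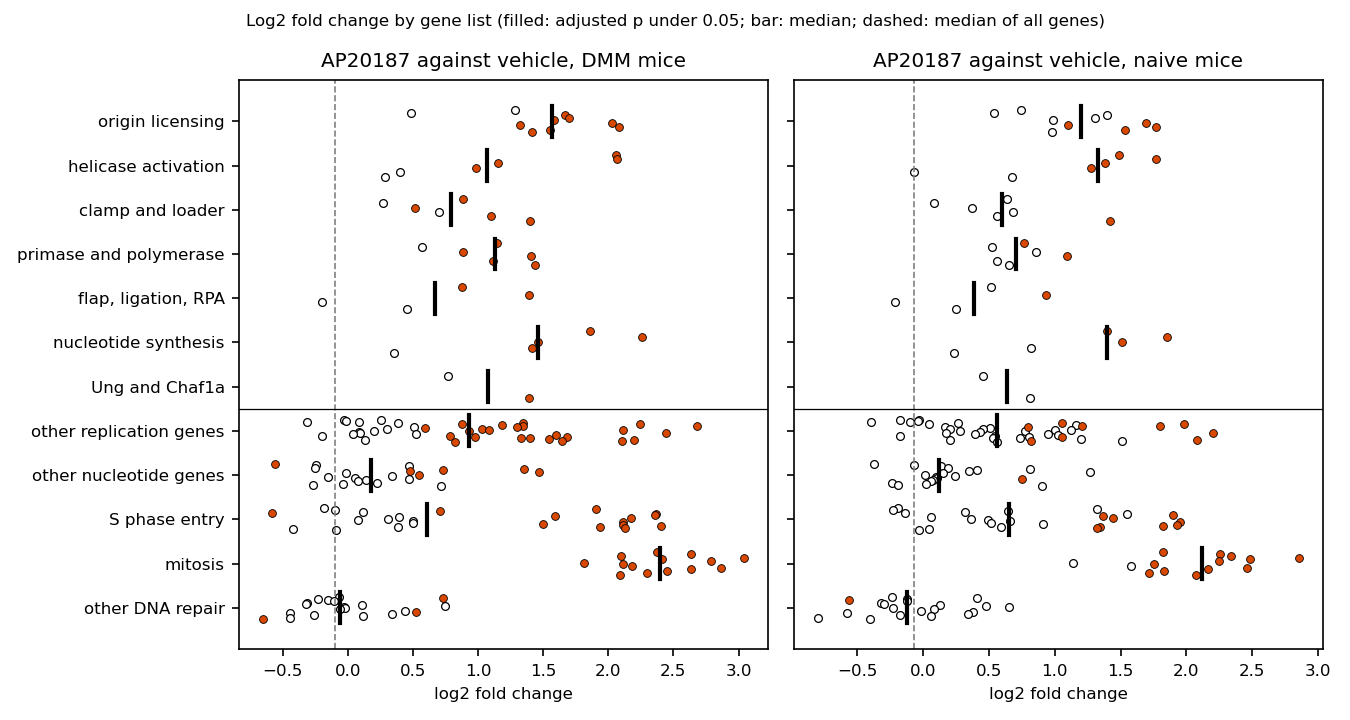
Log2 fold change with AP20187 of each gene (points, filled where the adjusted p was under 0.05) in the 7 role groups of members (upper rows) and 5 other lists (lower rows), for DMM mice (left) and naive mice (right), with list medians (bars) and the median of all genes (dashed). Mitosis genes lie farthest right, and other DNA repair genes lie around the dashed line.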

How the data were processed

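Per the labels' protocols, poly(A) RNA of pooled L3 to L5 dorsal root ganglia was made into stranded TruSeq libraries. The submitters' processing notes name cutadapt, HISAT2, StringTie and the build GRCm39, without versions. Gene positions are those of the deposited table. The table deposited by the authors holds whole-number counts, not normalized, and FPKM, scaled to gene length and library size. The counts were the basis of all main results and the FPKM of levels between genes and of alternatives. Of the entries with counts in the deposited count matrix, 1 had no gene of equal counts in the table and was left out.

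The test was the robust quasi-likelihood F test of edgeR 4.0.16 (R 4.3.3), with TMM normalization and filterByExpr (minimum count 10), in 1 model of the 4 groups over 19 libraries with 15 residual degrees of freedom. The contrasts were AP20187 against vehicle in DMM and in naive mice, DMM against naive with vehicle and with AP20187, and the interaction. All tests were two-sided, adjusted by Benjamini-Hochberg over 22778 genes, with 0.05 as the threshold ("called"). Values are mean ± SD over samples. The labels do not state that each numbered sample is 1 mouse, so p-values measure the spread between these samples, which may be technical. Depth was similar in all libraries, and intervals cover no more than the spread among them.

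The members and all lists were chosen with earlier results of these data known. Values in every library are given for the member of each role with the largest and the one with the smallest log2 fold change in DMM, and for Pcna, Mcm2, Rrm2, Tyms and Rfc1. In other contrasts the 3 smallest p and members whose call differs were named, and of other lists the 2 largest and 2 smallest called changes, 1 of which is not reported here. Alternatives were DESeq2 1.42.0, limma 3.58.1 on log2(FPKM + 1) and log2(FPKM + 0.1), other scalings and filters, the groups of a contrast alone, leaving out each mouse, both sets of DMM vehicle mice, and a replicate block in naive mice. Motifs were searched in RefSeq promoters of GRCm38.p6 on both strands, and no coordinates were converted between builds. Of the members, 16 overlap a gene on the other strand, and 8 a gene on their own strand that is near 0. Protein sequences were not used here.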

Additional observations from a re-analysis of the deposited data

Results flagged for a closer look

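In 4 of the 156 groups of member values checked (39 genes in 4 groups), 1 library stood far from the others of its group, by the gap to its nearest neighbour against the whole range. Chance flags about 1 in 20 groups, and the 4 flags found are fewer than that rate would give. Cdt1 was at 12.9 CPM in DMM vehicle 64, and the next highest DMM vehicle mouse was at 4.41 CPM. In naive vehicle 4, Mcm2 was at 21.9 CPM (next 13.1), Lig1 at 38.8 CPM (next 22.8) and Rrm2 at 35.2 CPM (next 15.6). The same naive mouse had the highest member sum of its group, 814 CPM, and the highest sum of the 7 granulocyte precursor markers, 135 CPM. DMM vehicle 64 was likewise highest in both within its group, at 1136 and 484 CPM. Both mice were also highest in their group for erythroid precursor markers (6328 CPM in naive vehicle 4 and 11913 CPM in DMM vehicle 64) and for mature neutrophil and endothelial markers. What part those cells had in the values was not tested.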

How the results depend on the processing

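In DMM mice the number of members called with AP20187 was 28 and lay between 26 and 32 under DESeq2, other filters, other scalings, FPKM and the 2 DMM groups alone. Of all genes, 23.6% were called in the main fit and 11.5% to 31.9% under those alternatives. Leaving out 1 mouse gave 17 to 32 members, beside 14% to 33.8% of all genes. The number was 36 against vehicle mice 32 to 34 and 2 against mice 63 and 64 alone, beside 36.3% and 4.8% of all genes. Against 63 and 64 alone Gins4 and Dut also changed sign, to -0.20 and -0.17. In naive mice 15 were called and 17 under DESeq2, beside 11% and 19.1% of all genes. The number was 9 each without TMM and on log2(FPKM + 1) and log2(FPKM + 0.1), where 10.5%, 18.8% and 19.3% of all genes were called. Leaving out 1 mouse gave 1 to 18 members, beside 4.1% to 14.5% of all genes. On those FPKM scales the log2 fold changes of Rfc1 were -0.0861 and -0.0939, and those of Dut -0.00720 and -0.0134. Leaving out 1 mouse gave -0.0690 to 0.374 for Dut, negative without naive AP20187 1. Between DMM and naive mice with AP20187, 0 were called, but 2 under DESeq2 and 3 on each FPKM scale, which is 5.13% and 7.69% of members beside 4.87%, 5.67% and 4.51% of all genes. DMM against naive with vehicle and the interaction had 0 under every alternative run. Of the 28 DMM calls, 17 held in every fit that left out 1 mouse, and of the 15 naive calls 1 did, Cdc45. Under every alternative run 2 DMM calls held, Cdc45 and Pole, and 0 naive calls, that of Cdc45 being lost with the replicate block (adjusted p = 0.0544). The causes were not tested.

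Naive mice share the numbers 1, 3, 4 and 5 across treatments. The same-number correlations of deviations were 0.01, 0.25, -0.05 and 0.22, and not every mouse correlated best with its own number, so pairing was not taken as given. With a replicate block 2 members were called, 5.13% beside 11% of all genes, and 4 in the same 8 mice without it, 10.3% beside 6.55%, a comparison added after seeing the data. The block thus came with more calls over all genes and fewer among the members. The SE of a member's log2 fold change ran from 0.12 to 0.56 in DMM and from 0.13 to 0.57 in naive mice.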
